A study of Homo sapiens with 10 samples.

Results

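The data were 4 long-read libraries of the human breast cancer cell line MDA-MB-231, 2 from cells treated with cobalt chloride (CoCl2) and 2 from untreated cells, chosen by their labels from the 10 libraries of the series. MDA-MB-231 is a triple-negative line with a basal, mesenchymal character. All 4 cultures carried a doxycycline-inducible Ribo-STAMP vector, in which the ribosomal protein RPS2 is joined to the cytidine deaminase APOBEC1, and all received 1 ug/mL doxycycline for 48 h. The treated cells also received 100 uM CoCl2 for 48 h, and per the labels the treatment served to induce hypoxia in a disease model. Polyadenylated RNA was prepared for PacBio sequencing with the same kit in all 4 libraries. Nothing in the labels says whether the replicates grew as separate cultures, so every p-value here measures spread among these samples only, and that spread may be technical. The editor without the ribosomal protein was not measured in this cell line, so editing that does not come from ribosomes has no background value here. In RNA from whole cultures, fewer cells that express a gene and less RNA per cell cannot be told apart.

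Cobalt ions inhibit the prolyl hydroxylases that mark the alpha subunits of hypoxia-inducible factors (HIF) for destruction, so HIF accumulates in the presence of oxygen and binds promoters and enhancers that hold the core motif ACGTG. HIF targets are known for glucose uptake and glycolysis, for mitophagy, for the limits they set on mitochondrial respiration and for extracellular signals such as adrenomedullin. In Ribo-STAMP, the deaminase carried by ribosomes turns cytidine into uridine in messenger RNA near the ribosome, so edited positions accumulate on RNA that has been on ribosomes. A long read can cover a molecule from end to end, so editing and isoform can be read from the same molecule. Coverage here counts reads assigned to a transcript, and whether each read spans it is not given in the sources used here.

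Each library listed coding positions at which at least 1 read was edited, with the edited and the covering reads. For each transcript the covering reads were taken as the median over its listed positions and stand in for RNA abundance, and the edited reads were summed over positions. The untreated libraries listed 11518 and 11310 transcripts with 177069 and 158721 edited reads, and the CoCl2 libraries 11066 and 10819 transcripts with 172625 and 155572 edited reads. Summed covering reads were 1137588.5 and 1135885.5 in untreated cells and 1204721 and 1120240 in CoCl2. All 16 markers of MDA-MB-231 that were looked for were listed. Of 11 luminal breast markers 5 were listed (ERBB2, GATA3, EPCAM, KRT19 and XBP1, with 713 to 1115.5 summed covering reads per library, beside 11238.5 to 12889 for the MDA-MB-231 markers), while ESR1, PGR, FOXA1, CDH1 and TFF1 were among those not listed. Of 12 HEK293T markers 2 were listed.

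No position was listed in all 4 libraries. Of 370863 positions, counted per transcript, 71.0% were listed in 1 library, 19.4% in 2 and 9.65% in 3, and the step that left out positions shared by all is not given in the sources used here. The share of positions found in 3 libraries was 0.502% in transcripts with fewer than 10 covering reads and 23.9% in those with 1000 or more. Edited reads per 100 covering reads, at the median transcript, were 45.3 in the first of these groups and 4.72 in the second. Edited reads of well-covered transcripts may therefore be incomplete, and levels of editing are compared here for the same transcript between libraries, never between transcripts.

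Covering reads of the CoCl2 libraries lay more on transcripts annotated as short. The mean annotated transcript length, weighted by covering reads, was 2803 and 2575 bases in the untreated libraries and 2313 and 2326 bases in the CoCl2 libraries. The groups did not overlap, with an exact permutation p of 0.333, the smallest that 2 against 2 libraries can give. When transcripts were split into 4 equal groups by length, coverage with no adjustment was higher in CoCl2 by a median of 0.80 on the log2 scale in the shortest group, and lower in the longest, with a median of -0.62. The same trend separated the untreated libraries from each other, with medians of 0.35 and -0.37 for untreated replicate 2 minus replicate 1, and not the CoCl2 libraries, with -0.04 and -0.01. A smooth curve against length was therefore taken out of each library, which left medians of 0.09 in the shortest and -0.10 in the longest group.

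**Figure D1:**
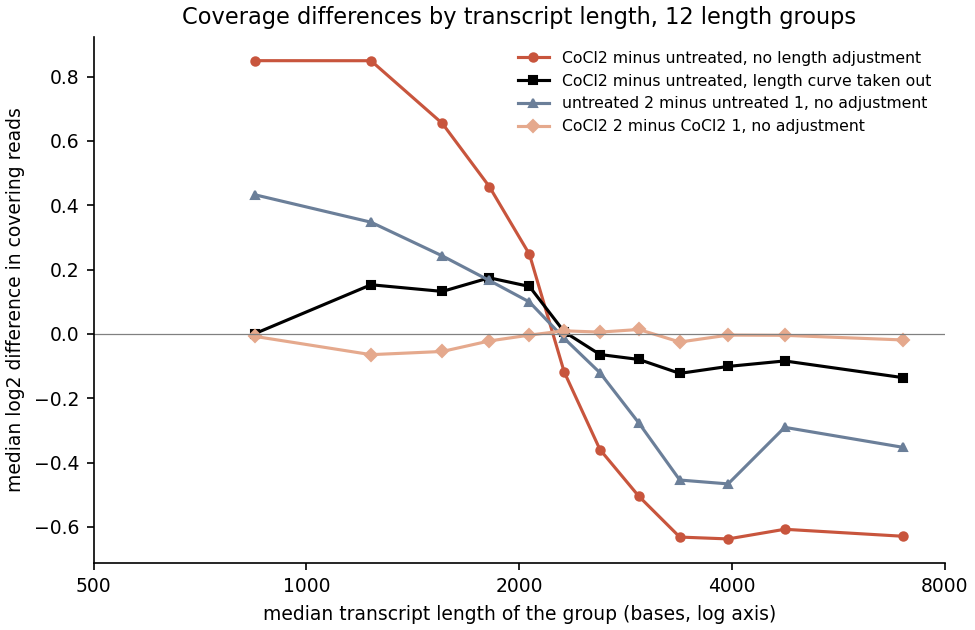
Median log2 difference in covering reads (vertical axis) for 12 groups of transcripts ordered by annotated length in bases (horizontal axis, log scale). The line for CoCl2 minus untreated without adjustment runs from 0.85 in the shortest group to -0.63 in the longest, the line for the untreated pair slopes the same way over a smaller range, and the lines for the CoCl2 pair and for the length-adjusted comparison stay between -0.14 and 0.17.

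After the length adjustment, 6595 transcripts were listed in all 4 libraries with a mean of at least 10 covering reads and were tested with limma (Benjamini-Hochberg adjusted p under 0.05, 2 libraries against 2). Coverage rose in CoCl2 for 539 transcripts, 8.17% of those tested, and fell for 396, 6.0%. At an unadjusted p under 0.05 the share was 31.2%. Calls still varied with length after the adjustment. In the shortest of the 4 length groups 39 of 1649 transcripts rose and 72 fell, and in the longest 181 of 1649 rose and 60 fell. Shares of the gene lists below are set beside all tested transcripts, not beside transcripts of the same length alone. The annotated length is not always the length of the molecule that was sequenced. Lengths came from GENCODE 29, and only 1569 of the tested transcripts had the version named in the files. A narrower set was therefore also counted, chosen after its values were seen, of transcripts called in the same direction with the transcript length, with the coding length and with no length adjustment. It held 218 transcripts that rose, 3.31% of those tested, and 220 that fell, 3.34%. The groups did not overlap for 100% of the transcripts that rose or fell, beside 61.2% of all tested. Separate groups are therefore no added support for a transcript that passed. Untreated replicate 2 lay between untreated replicate 1 and both CoCl2 libraries for 85.3% of the transcripts that rose, for 84.1% of those that fell and for 42.9% of all tested. This order needs groups that do not overlap, so all tested transcripts are not a like set. Of the 4039 tested transcripts with such groups 2826 had this order. Called transcripts were also better covered. Median mean covering reads were 151 for the 539 that rose, 112 for the 396 that fell and 61 for all tested. A list member below stands for its best-covered transcript, so list shares are not matched for coverage. The part of coverage in the list shares was not tested. Without CoCl2 replicate 1 no transcript passed, with 511 higher and 530 lower at an unadjusted p under 0.05. Without CoCl2 replicate 2, 87 rose and 50 fell, and without untreated replicate 2, the numbers were 1292 and 1058.

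Genes that hypoxia is known to induce rose more often than they fell. Of 40 such genes 36 were listed and 23 could be tested. Of these 9 rose (39.1%, beside 8.17% of all tested transcripts), 1 fell (4.35%, beside 6.0%) and 13 did not pass. The median log2 change of the 23 was 0.52, beside 0.01 over all tested transcripts. Among the members that rose were BNIP3, BNIP3L, NARF, FAM162A, ADM, DDIT4, MIF and JMJD6, and the member that fell was IGFBP3. All of the named members but BNIP3L and FAM162A were also called with the coding length and with no adjustment.

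BNIP3 encodes a receptor in the outer mitochondrial membrane that directs mitochondria to autophagy. Its transcript ENST00000368636 (chr10:131966455-131982013, minus strand, GRCh38) is 2861 bases long, and its covering reads were 227 and 218 in untreated and 683 and 503 in CoCl2. Both CoCl2 libraries lay above both untreated libraries. The length-adjusted difference was 3.81-fold, a log2 change of 1.93 ± 0.17 (SE), adjusted p = 0.000306. The log2 change was 1.52 with no length adjustment and 1.22 with the coding length. The covering reads of BNIP3L, its paralog with the same role, were 110 and 76 in untreated and 164 and 184 in CoCl2. The groups did not overlap, and the length-adjusted log2 change was 1.58 ± 0.19 (SE), adjusted p = 0.0011.

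NARF, which encodes a nuclear protein that binds the carboxyl end of prelamin A, had a large rise. Covering reads of ENST00000309794 (chr17:82458606-82490537, plus strand, 3949 bases) were 73 and 83 in untreated and 213 and 178 in CoCl2. The CoCl2 libraries were the higher ones, by a log2 change of 1.97 ± 0.22 (SE), adjusted p = 0.000868. The change of NARF was 1.44 with no length adjustment and 1.56 with the coding length. FAM162A, which encodes a mitochondrial membrane protein, had few reads, 9 and 10 in untreated and 33 and 22.5 in CoCl2. They also separated the groups, with a log2 change of 2.02 ± 0.38 (SE), adjusted p = 0.00526, and this is the widest error among the members that rose.

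Covering reads of ADM, the vasodilating peptide adrenomedullin, were 52 and 69 in untreated and 145 and 136 in CoCl2, and the log2 change was 1.11 ± 0.21 (SE), adjusted p = 0.00547. DDIT4, an inhibitor of the growth-controlling kinase complex mTORC1, had 403 and 408 in untreated and 759 and 807 in CoCl2 (0.72 ± 0.15 (SE), adjusted p = 0.00838). In both genes the CoCl2 libraries lay above both untreated libraries. The cytokine gene MIF had a log2 change of 0.63 and the hydroxylase gene JMJD6 0.67.

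IGFBP3, which binds insulin-like growth factors outside the cell, went the other way. Its covering reads were 287 and 145 in untreated and 73 and 89 in CoCl2, a log2 change of -1.02 ± 0.26 (SE), adjusted p = 0.0221. Untreated replicate 1 was the highest of the 4, and the groups did not overlap. Well-known HIF targets that were tested and did not pass included EGLN3, a prolyl hydroxylase of HIF (0.53), the collagen hydroxylases P4HA1 (0.33) and P4HA2 (0.52), ANGPTL4 (0.38), NDRG1 (0.17) and the glucose transporter gene SLC2A1 (-0.08). A further 13 listed members were too low or absent in a library. Among them the gene of the carbonic anhydrase CA9 had 1 covering read in untreated replicate 1, none listed in untreated replicate 2, and 4 and 7 in CoCl2. HILPDA, which encodes an inhibitor of lipid droplet breakdown, was listed only in the CoCl2 libraries, with 46 and 30 covering reads.

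The promoters of hypoxia-induced genes often hold the core motif bound by HIF, and the sequences below show where it lies in members that rose. The motif ACGTG, or its reverse complement CACGT on the same strand, was looked for in the 250 bases before each annotated start, in RefSeq promoters of GRCh38.p14. It was found in 18 of 30 listed hypoxia-induced genes with a promoter in the table (60.0%), beside 18.7% of all 27305 promoters and 26.3% of promoters of tested genes. It was present in 26.5% of promoters of all genes that rose and in 29.5% of those that fell. For each gene a window of 41 bases around the motif nearest to the start is printed 5′ to 3′ on the strand of the gene, with the motif in capitals, where CACGTG holds both forms. The windows lie at chr10:131982034-131982074 (-), chr17:82458129-82458169 (+), chr3:122384080-122384120 (+) and chr10:72273781-72273821 (+).
BNIP3: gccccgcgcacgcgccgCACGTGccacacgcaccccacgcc
NARF: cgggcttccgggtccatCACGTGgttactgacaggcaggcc
FAM162A: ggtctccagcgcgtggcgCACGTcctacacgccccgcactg
DDIT4: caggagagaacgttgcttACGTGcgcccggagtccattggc
In these windows BNIP3 and NARF have the palindrome CACGTG, FAM162A has CACGT and DDIT4 has ACGTG. Of the 9 members that rose 6 had a promoter in the table, and 4 of these held the motif, which was not found in the 250 bases of ADM or MIF. A match describes the letters and does not show that HIF was bound.

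Glycolysis genes, HIF targets of long standing, were the list with the largest share of members that rose. Of 21 genes 16 were tested, 11 rose (68.8%, beside 8.17% of all tested), none fell and 5 did not pass, with a median log2 change of 0.54. The 11 span the pathway from GPI and PFKL through PFKFB3, ALDOA, GAPDH, PGK1, PGAM1, ENO1 and PKM to LDHA and the lactate exporter gene SLC16A3. The calls held under all 3 length treatments for 7 of them, GPI, ALDOA, GAPDH, PGK1, PGAM1, ENO1 and SLC16A3. When GC content was also taken out, 8 of the 16 passed.

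PGK1, the phosphoglycerate kinase (chrX:78104174-78129296, plus strand, GRCh38), had 2135 and 2840 in untreated and 4669 and 4432 in CoCl2 covering reads. Both CoCl2 libraries were above both untreated libraries, and the log2 change was 1.53 ± 0.19 (SE), adjusted p = 0.0011. Its annotated length is 4887 bases, and the change was 1.01 with no adjustment and 1.04 with the coding length. GAPDH (chr12:6533927-6538371, plus strand), which catalyses the step before it, had 6533 and 8639 in untreated and 20322 and 16950 in CoCl2 covering reads, a log2 change of 1.19 ± 0.13 (SE), adjusted p = 0.000868. Again both CoCl2 libraries were the higher ones. SLC16A3 had 2206 and 2094 in untreated and 4279 and 3991 in CoCl2 covering reads (0.93 ± 0.12 (SE), adjusted p = 0.00115), and within each group its libraries were close together. Its other tested isoform, of 1033 bases, did not pass (0.24).

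The other members that rose had smaller log2 changes, of 0.81 for LDHA (lactate dehydrogenase A), 0.68 for the aldolase ALDOA, 0.59 for PGAM1, 0.56 for PFKL, 0.53 for PKM, 0.47 for ENO1 and 0.46 for GPI. PFKFB3, which makes the activator of phosphofructokinase, had 24 to 27 covering reads in CoCl2 and 16 to 18 in untreated cells, a log2 change of 1.21 ± 0.33 (SE), adjusted p = 0.0264. Its other tested isoform did not pass (0.49). For PFKL, PKM and LDHA the adjustment matters: the unadjusted log2 changes were 0.14, 0.41 and 0.63, and the covering reads of PFKL overlapped between groups before adjustment (503 and 593 in untreated and 563 and 536 in CoCl2). The 5 members that did not pass were HK1 (-0.18), PFKP (0.12), PFKM (-0.23), PFKFB4 (0.25) and ENO2 (0.33).

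The motif stood in 5 of the 11 promoters of the glycolysis genes that rose (45.5%). It stood in 8 of the 19 promoters of all listed glycolysis genes (42.1%), a similar share, and in 26.3% of promoters of tested genes. Windows are shown for the 5 that rose, at chr12:6535166-6535206 (+), chrX:78104047-78104087 (+), chr11:18394472-18394512 (+), chr16:30064083-30064123 (+) and chr19:34364812-34364852 (+), with the motif in capitals as before. The RefSeq start of a gene can differ from that of the tested transcript, and the windows of GAPDH and LDHA lie inside the span of the tested transcript, after its annotated start.
GAPDH: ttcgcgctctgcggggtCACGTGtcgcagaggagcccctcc
PGK1: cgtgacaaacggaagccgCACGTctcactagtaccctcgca
LDHA: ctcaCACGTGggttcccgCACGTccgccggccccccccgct
ALDOA: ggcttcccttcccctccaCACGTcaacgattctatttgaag
GPI: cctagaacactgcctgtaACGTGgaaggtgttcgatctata
The window of LDHA holds 2 separate motifs, and GAPDH holds the palindrome. The 6 others that rose, PFKFB3, PGAM1, ENO1, PKM, PFKL and SLC16A3, had no match in these 250 bases.

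**Figure D2:**
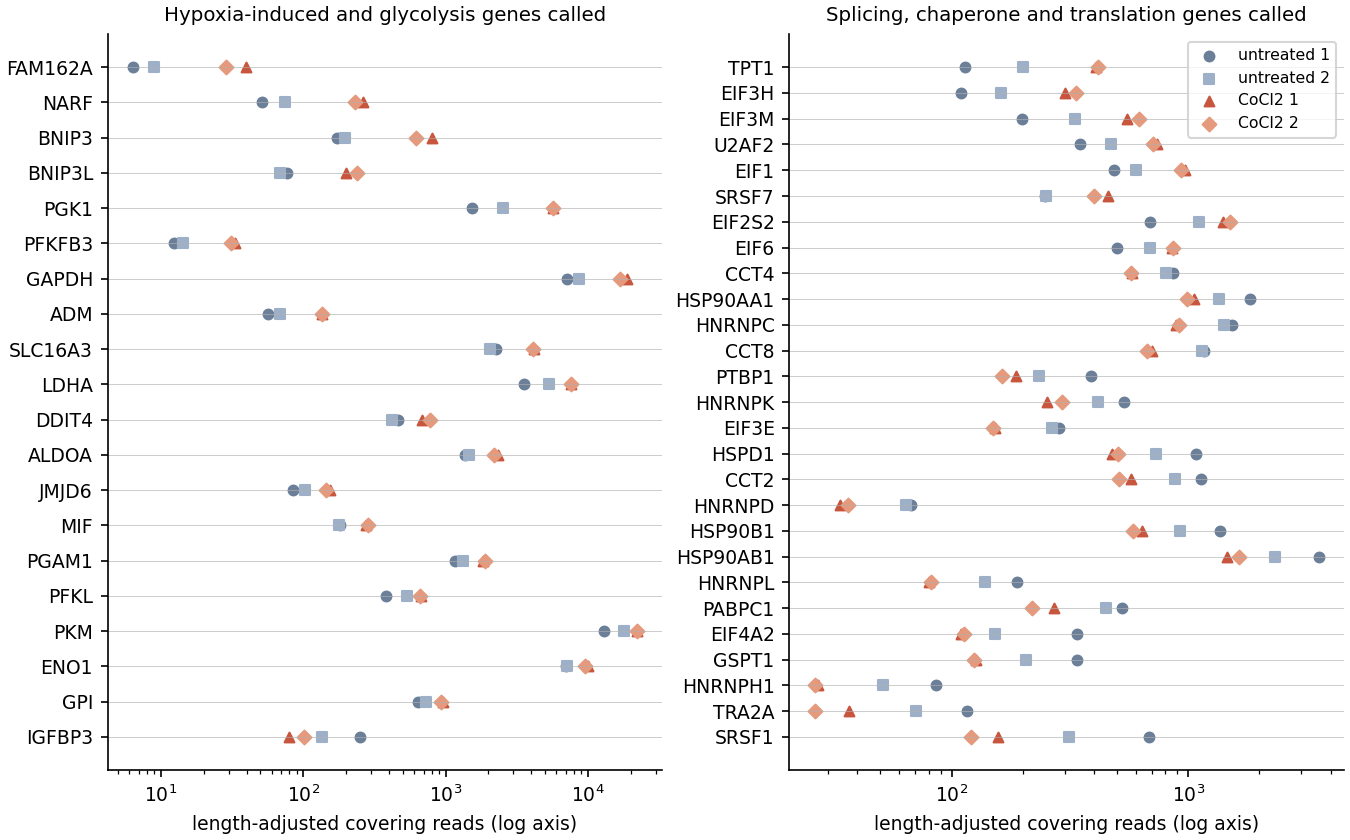
Length-adjusted covering reads (horizontal axis, log scale) of the transcripts reported here that passed the test in the hypoxia and glycolysis lists (left) and in the splicing, chaperone and translation factor lists (right), with 1 point per library. The CoCl2 points lie to one side of both untreated points for every gene shown, as for 100% of transcripts that passed. Untreated replicate 2 is often the nearer of the untreated pair to the CoCl2 points.

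Cobalt can also cause oxidative stress. Of 24 tested genes of the metal and oxidative response 4 rose (16.7%, beside 8.17% of all tested) and 1 fell (4.17%, beside 6.0%), and the median log2 change was 0.26. With no length adjustment 11 passed as higher and 2 as lower, and with the coding length 8 and 2. NQO1, a quinone reductase controlled by the factor NRF2, had 407 and 324 in untreated and 594 and 577 in CoCl2 covering reads, and both CoCl2 libraries were the higher ones. Its log2 change was 1.24 ± 0.15 (SE), adjusted p = 0.0011, although with the coding length (0.54) it did not pass. The autophagy adaptor gene SQSTM1 (1.05), the transketolase gene TKT (0.92) and the ferritin light chain gene FTL (0.42) also rose, and SLC39A14, a metal importer, fell by 0.95. The call of TKT did not hold under all 3 length treatments. HMOX1 (0.17), MT2A (-0.15) and MT1X (0.32), the textbook heme oxygenase and metallothionein responders, did not pass.

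In the mitochondrion, 9 of 40 subunits of the respiratory chain rose (22.5%, beside 8.17% of all tested) and none fell, and the median log2 change was 0.17. With no length adjustment 31 passed as higher and 1 as lower with a median of 0.82, and with the coding length 13 and 1. The 9 had annotated lengths of 1985 to 13566 bases, while the median of the list was 1158. Of them 5, NDUFA9, NDUFA10, UQCRC1 and UQCRFS1 among them, were called under all 3 length treatments. UQCRC1, a core subunit of complex III, had 543 and 622 in untreated and 1034 and 861 in CoCl2 covering reads, a log2 change of 0.67 ± 0.14 (SE), adjusted p = 0.00966 with non-overlapping groups. In the list of the tricarboxylic acid cycle and linked enzymes, not all of them mitochondrial, 3 of 20 genes rose (15%, beside 8.17% of all tested). They were IDH2 (0.81), MDH2 (0.79) and PDHA1 (1.16), and the call of IDH2 did not hold under all 3 length treatments. In the same list 1 gene fell (5.0%, beside 6.0%).

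The one that fell was IDH1, the cytosolic NADP-dependent isocitrate dehydrogenase, and it was among the 10 largest falls of transcripts with a mean of at least 30 covering reads. Covering reads of ENST00000345146 (chr2:208236227-208255133, minus strand, 2382 bases) were 98 and 54 in untreated and 16 and 17 in CoCl2. Each CoCl2 library had under 20 reads and each untreated library over 50. The log2 change was -1.79 ± 0.31 (SE), adjusted p = 0.0035, and it was -1.95 with no adjustment.

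Splicing proteins fell more often than they rose. Of 30 tested 8 fell (26.7%, beside 6.0% of all tested), 2 rose (6.67%, beside 8.17%) and 20 did not pass, with a median log2 change of -0.26. SRSF1 (chr17:58004849-58007346, minus strand), a serine and arginine rich splicing factor, had 546 and 295 in untreated and 189 and 134 in CoCl2 covering reads. Untreated replicate 1 stood far above replicate 2, and the groups did not overlap (-1.74 ± 0.28 (SE), adjusted p = 0.00255). TRA2A, a related splicing regulator, had 106 and 70 in untreated and 40 and 27 in CoCl2 covering reads (-1.51 ± 0.29 (SE), adjusted p = 0.00562). HNRNPH1 (-1.28), HNRNPL (-0.98), HNRNPD (-0.88), HNRNPK (-0.79), PTBP1 (-0.78) and HNRNPC (-0.71), which encode RNA-binding proteins of the nucleus, fell too, and SRSF7 (0.77) and U2AF2 (0.83) rose. Other tested isoforms of these genes did not pass, among them those of U2AF2 (-0.29), SRSF7 (0.58), HNRNPH1 (-0.21), HNRNPD (-0.32) and PTBP1 (-0.65). The call held under all 3 length treatments for 6 of the 8, not for HNRNPC and HNRNPD, and for neither gene that rose.

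Of 21 cytosolic and mitochondrial heat shock and chaperonin genes 6 fell (28.6%, beside 6.0% of all tested) and none rose, and the list median was -0.19. These counts depended on the length treatment, with 2 higher and 2 lower under the coding length and 3 higher and 10 lower with no adjustment. HSP90AB1, the constitutive form of HSP90, had 4315 and 2531 in untreated and 1296 and 1390.5 in CoCl2 covering reads, and the groups did not overlap (-0.90 ± 0.18 (SE), adjusted p = 0.0068). HSP90AA1 (-0.61), the mitochondrial chaperonin gene HSPD1 (-0.86) and the chaperonin subunit genes CCT2 (-0.88), CCT4 (-0.53) and CCT8 (-0.76) completed the 6, of which HSP90AB1 and HSPD1 held under all 3 length treatments. Of 18 chaperones of the endoplasmic reticulum only HSP90B1 passed, as lower (5.56%, beside 6.0% of all tested). It had 1794 and 1020 in untreated and 542 and 473 in CoCl2 covering reads (-0.88 ± 0.18 (SE), adjusted p = 0.00732). Among 17 tested genes of the integrated stress response TRIB3 (0.78), PYCR1 (0.57) and SLC7A5 (0.77) rose, and PSAT1 (-0.85) and ALDH18A1 (-0.89) fell. That is 17.6% and 11.8% of the list, beside 8.17% and 6.0% of all tested, and the median was -0.34. The calls of TRIB3 and SLC7A5 did not hold under all 3 length treatments.

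For ribosomal protein genes the result depended on the length adjustment. Without adjustment, 29 of 42 large subunit genes and 24 of 29 small subunit genes passed as higher in CoCl2, with median log2 changes of 0.71 and 0.75, as did short transcripts in general. Against transcripts of their own length the medians were 0.01 and -0.03, and 9 and 2 rose (21.4% and 6.90%, beside 8.17% of all tested). In the large subunit 1 fell (2.38%, beside 6.0%), in the small subunit none, and the rest did not pass. The 11 that rose have annotated transcripts of 2097 to 7686 bases, beside medians of 1022.5 and 732 for the lists. RPL14 had 102 and 146 in untreated and 256 and 258 in CoCl2 covering reads on a transcript annotated with 7072 bases, and the log2 change was 1.69 ± 0.23 (SE), adjusted p = 0.00151, or 0.82 with the coding length. Its other tested isoform, of 916 bases, did not pass (-0.25). RPL4, RPL10, RPL13 and RPL14 were called under all 3 treatments. RPL28 and RPL37 rose by 0.87 and 0.96 and turned to -0.16 and -0.13 with the coding length, and RPL27 fell by 0.61 and turned to 0.33 with no adjustment.

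Of 36 translation factors 6 rose (16.7%, beside 8.17% of all tested) and 4 fell (11.1%, beside 6.0%), and the list median was 0.05. With no length adjustment 12 passed as higher and 11 as lower, and with the coding length 10 and 7. PABPC1, which binds the poly(A) tail, had 742 and 497 in untreated and 221 and 169 in CoCl2 covering reads (-0.99 ± 0.17 (SE), adjusted p = 0.00353), and the translation termination factor GSPT1 had 465 and 232 in untreated and 105 and 97 in CoCl2 (-1.07 ± 0.22 (SE), adjusted p = 0.00816). Both fell with all CoCl2 libraries below all untreated ones. EIF3E (-0.86) and EIF4A2 (-1.02) fell as well. TPT1 (1.44), EIF3H (1.26), EIF3M (1.19), EIF1 (0.81), EIF2S2 (0.73) and EIF6 (0.54) rose, on annotated transcripts of 1289 to 5051 bases. Calls held under all 3 length treatments for EIF3H, EIF3M, EIF6, EIF4A2, PABPC1 and GSPT1, not for TPT1, EIF1, EIF2S2 and EIF3E. Other tested isoforms of EIF3H (0.29) and EIF6 (0.31) did not pass, and that of EIF4A2 fell (-1.54). Of the proteasome, which degrades tagged proteins, 7 of 29 subunits rose (24.1%, beside 8.17% of all tested). Only PSMD1 fell (-1.04), which is 3.45% of the list beside 6.0%, and the list median was 0.31. With no adjustment 20 passed as higher, and with the coding length 14. PSMA5 (1.32) and PSMA4 (1.22) had the largest rises of the list, and PSMC1, PSMC5 and PSMD13 held under all 3 length treatments. The other tested isoform of PSMA4 did not pass (0.05).

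The remaining lists had few calls. Shares that rose and fell were 10.3% and 3.45% for cell cycle and replication, 5.0% and 10% for the matrix, 12.5% and 8.33% for the cytoskeleton and 5.26% and 0% for cholesterol and fatty acid synthesis, beside 8.17% and 6.0% of all tested, and each rests on 3 genes or fewer. In cell cycle and replication 3 of 29 rose, CDK4 (0.69), CCND1 (0.86) and TK1 (0.46), and TOP2A fell (-0.61). In the matrix list the lysosomal protease gene CTSD rose (0.53), and PLAU, the protease urokinase (1878 and 1561 in untreated and 835 and 772 in CoCl2 covering reads, -0.85 ± 0.14 (SE), adjusted p = 0.00251), and THBS1 (-0.72) fell, of 20 tested. Of 24 cytoskeletal genes TUBA1C (1.05), TUBB6 (0.60) and TUBA1B (0.45) rose and MYH9 (-1.12) and TPM4 (-0.54) fell. Of 19 genes of cholesterol and fatty acid synthesis EBP rose (0.69). Of 5 antigen presentation genes HLA-E (0.96) and FCGRT (1.21) rose, 40% of a short list beside 8.17% of all tested. Of the genes named in these remaining lists CCND1, TOP2A, THBS1, MYH9 and HLA-E did not pass under all 3 length treatments.

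**Figure D3:**
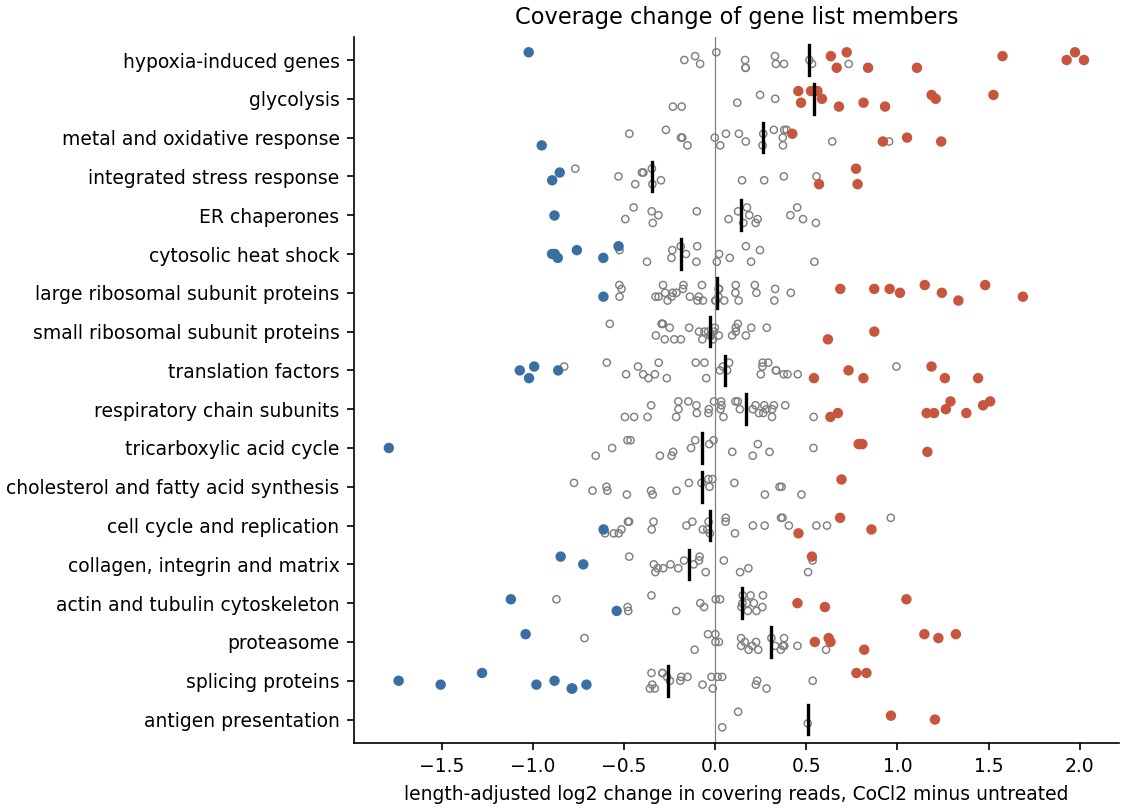
Length-adjusted log2 change in covering reads, CoCl2 minus untreated (horizontal axis), of every tested member of 18 gene lists, with filled points for members that passed the test, red for those that rose and blue for those that fell, open points for the others, and a black bar at the list median. The bars of the hypoxia and glycolysis lists stand at 0.52 and 0.54, those of the splicing and integrated stress lists at -0.26 and -0.34.

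Largest changes were ranked over all tested transcripts, list members included, that passed with a mean of at least 30 covering reads and groups that did not overlap, taking 1 transcript a gene. The 10 largest rises were led by NARF and BNIP3. They also included PHKG2, the catalytic subunit of a phosphorylase kinase that switches on glycogen breakdown (28 and 35 in untreated and 68 and 75 in CoCl2 covering reads, 1.80 ± 0.27 (SE), adjusted p = 0.00213), and HAGH, which detoxifies the glycolytic by-product methylglyoxal (15 and 32 in untreated and 55 and 43 in CoCl2 covering reads, 1.69 ± 0.38 (SE), adjusted p = 0.0125). In both genes untreated replicate 2 lay nearer to the CoCl2 libraries than replicate 1 did. The others were MPLKIP (1.75), NDUFV3 (1.73), PAAF1 (1.72), NOPCHAP1 (1.70), RPL14 and ZDHHC24 (1.69), annotated with 4676 to 23529 bases.

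The largest fall in this ranking was that of TM9SF3 (chr10:96518109-96587052, minus strand), a transmembrane protein gene, with 88 and 46 in untreated and 12 and 6 in CoCl2 covering reads. The groups did not overlap, and the difference was 4.38-fold after length adjustment (-2.13 ± 0.37 (SE), adjusted p = 0.00352). The prion protein gene PRNP had 143 and 129 in untreated and 65 and 64 in CoCl2 covering reads on a transcript annotated with 806 bases (-1.80 ± 0.23 (SE), adjusted p = 0.0011). Its change was -0.94 with no adjustment, while the median of the shortest length group was 0.80. The other tested PRNP isoforms, of 2657 and 2539 bases, did not pass (-0.32, adjusted p = 0.239, and -0.62, adjusted p = 0.0609, with limma). IFNGR1, a chain of the interferon gamma receptor, had 128 and 67 in untreated and 28 and 24 in CoCl2 (-1.70 ± 0.30 (SE), adjusted p = 0.0042), and the histone demethylase gene KDM1A had 189 and 87 in untreated and 29 and 27 in CoCl2 (-1.57 ± 0.28 (SE), adjusted p = 0.00399). Untreated replicate 1 was the highest library for all of these. KHSRP (-1.68), NONO (-1.68), TNPO1 (-1.60), ESF1 (-1.59), IDH1 and SRSF1 made up the rest of the 10, and of all 20 named here NDUFV3, NOPCHAP1, ZDHHC24, KHSRP, NONO and ESF1 did not pass under each of the 3 length treatments. Other tested isoforms of NDUFV3 (0.21), HAGH (0.64), NONO (-0.53) and TNPO1 (-1.41) did not pass, and that of KDM1A fell (-1.10).

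Transcripts that rose were richer in G and C than those that fell. Median GC content was 52.4% in transcripts that rose, 44.3% in those that fell and 50.7% in all tested, and in the sets called under all 3 length treatments it was 58.0% and 44.1%. When a curve against GC content was taken out of each library after length, an alternative added after seeing the data, 428 transcripts rose and 249 fell. Among the hypoxia genes 7 then rose and 1 fell, among the splicing genes 3 rose and 8 fell, and among the heat shock genes 4 fell. The part of GC content in these results was not tested further.

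Edited reads, which depend on both the amount of an RNA and its ribosome marks, were compared for 5468 transcripts with a mean of at least 5 edited reads. They rose for 100 transcripts, 1.83%, and fell for 56, 1.02%. Without untreated replicate 1 the counts were 7 and 1. Edited reads of BNIP3 were 14 and 29 in untreated and 129 and 101 in CoCl2, and those of NARF were 11 and 13 in untreated and 62 and 55 in CoCl2. For both genes the lowest CoCl2 library held over 3 times the edited reads of the highest untreated one. The length-adjusted log2 changes were 2.84 ± 0.38 (SE), adjusted p = 0.001 for BNIP3 and 2.75 ± 0.38 (SE), adjusted p = 0.001 for NARF.

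Other rises were those of EMG1, a methyltransferase of ribosomal RNA (4 and 10 in untreated and 42 and 25 in CoCl2), and FCGRT, the neonatal Fc receptor (3 and 13 in untreated and 59 and 38 in CoCl2). The CoCl2 libraries stood above the untreated ones in each, with log2 changes of 2.70 and 2.26. ZDHHC24 (2.67), DDA1 (2.60), MCUR1 (2.49), ARL3 (2.42), COA8 (2.39) and MTG2 (2.34) completed the 10 largest. Among glycolysis genes PGK1 (2.09), GAPDH (1.55), PGAM1 (1.16), ALDOA (1.13) and SLC16A3 (0.97) passed as higher, 5 of 14 tested, beside 1.83% of all tested transcripts.

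Edited reads of IDH1 were 26 and 25 in untreated and 4 and 4 in CoCl2, and those of GSN, the actin-severing protein gelsolin (chr9:121268060-121317112, plus strand), were 145 and 144 in untreated and 58 and 76 in CoCl2. The untreated libraries were the higher ones in both genes, with log2 changes of -2.28 ± 0.48 (SE), adjusted p = 0.021 for IDH1 and -2.05 ± 0.29 (SE), adjusted p = 0.001 for GSN. The GSN transcript has 1042 bases, and the length adjustment widened its difference. Its length-adjusted edited reads were 236 and 171 in untreated and 39.6 and 57.1 in CoCl2. The log2 change of its coverage was -1.12 with the length adjustment and -0.36 without it. The RNA-binding protein gene YBX3 had 37 and 34 in untreated and 11 and 11 in CoCl2 edited reads (-2.03). KHSRP (-2.55), MTA2 (-2.38), PIAS3 (-2.25), CAP1 (-2.17), PRNP (-2.14), NCBP1 (-1.85) and MORF4L2 (-1.83) were the other large falls.

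Single positions show the marks behind these sums. For 3 transcripts with more and 3 with fewer edited reads in CoCl2, a position is printed with 15 bases on either side, 5′ to 3′ on the transcript from GENCODE 29, with the edited C in capitals.
BNIP3: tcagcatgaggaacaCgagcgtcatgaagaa
NARF: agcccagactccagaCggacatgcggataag
EMG1: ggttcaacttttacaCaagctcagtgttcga
IDH1: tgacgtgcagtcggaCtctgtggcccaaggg
YBX3: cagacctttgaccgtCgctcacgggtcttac
MORF4L2: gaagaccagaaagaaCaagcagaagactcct
The position in BNIP3 (chromosome 10, position 131970734, GRCh38) had no listed edit in untreated replicate 1, 1 edited read of 219 in untreated replicate 2, and 11 of 686 and 4 of 506 in CoCl2. The position in NARF (chromosome 17, 82487953) had 1 edited read of 73 in untreated replicate 1, none listed in replicate 2, and 4 of 213 and 3 of 178 in CoCl2. In EMG1 the position (chromosome 12, 6975103) was listed only in CoCl2, with 3 of 203 and 4 of 161 reads. The position in IDH1 (chromosome 2, 208242007) was listed only in untreated cells, with 1 of 98 and 3 of 54 reads, as were those in YBX3 (4 of 126 and 2 of 114) and MORF4L2 (5 of 482 and 2 of 415). These sites illustrate the marks and were picked among listed positions with their counts in view, so they are no test. No position was listed in all 4 libraries. A position listed in both libraries of a group therefore lacks an entry in at least 1 library of the other group, whatever its editing there.

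Editing per covering read, the quantity nearest to ribosome marks per molecule, gave no call for any transcript. Of 5269 transcripts tested with limma 0 rose and 0 fell (0.00%), the lowest adjusted p was 0.412, and 308 (5.85%) had an unadjusted p under 0.05, 156 up and 152 down. In the middle transcript the 95% interval of the log2 change reached 0.85 to either side, beside 0.54 for coverage, so changes of that size were not detectable for most transcripts. BNIP3 had 6.17 and 13.3 in untreated and 18.9 and 20.1 in CoCl2 edited reads per 100 covering reads, a log2 change of 0.94 (95% interval 0.30 to 1.59), and NARF had 15.1 and 15.7 in untreated and 29.1 and 30.9 in CoCl2, a change of 0.81 (95% interval 0.18 to 1.45). Neither passed (adjusted p = 0.841 for each), although the CoCl2 libraries were the higher ones in both. For PGK1 the change was 0.56 (95% interval 0.17 to 0.95), for GAPDH 0.36 (95% interval -0.13 to 0.86), for LDHA -0.35 (95% interval -0.89 to 0.19) and for SLC16A3 0.03 (95% interval -0.31 to 0.37).

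GSN had the lowest p. Its edited reads per 100 covering reads were 65.3 and 59.3 in untreated and 39.2 and 40.9 in CoCl2, so both CoCl2 libraries lay below both untreated libraries. The log2 change was -0.95 (95% interval -1.33 to -0.57), with an adjusted p of 0.412. It passed without CoCl2 replicate 2 (adjusted p = 0.0318), as did 7 other transcripts. MARS1, the methionyl-tRNA synthetase gene with the next lowest p, had 64.1 and 61.2 per 100 in untreated cells and 42.1 and 42.0 in CoCl2. The proteasome gene PSMA4 was higher in both CoCl2 libraries, at 25.3 and 38.3 per 100, and lowest in untreated replicate 1, at 13.5. No member of any of the 18 gene lists passed, and the list medians ran from -0.23 for the integrated stress response (4 of 15 above 0) to 0.15 for the tricarboxylic acid cycle (11 of 20 above 0).

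**Figure D4:**
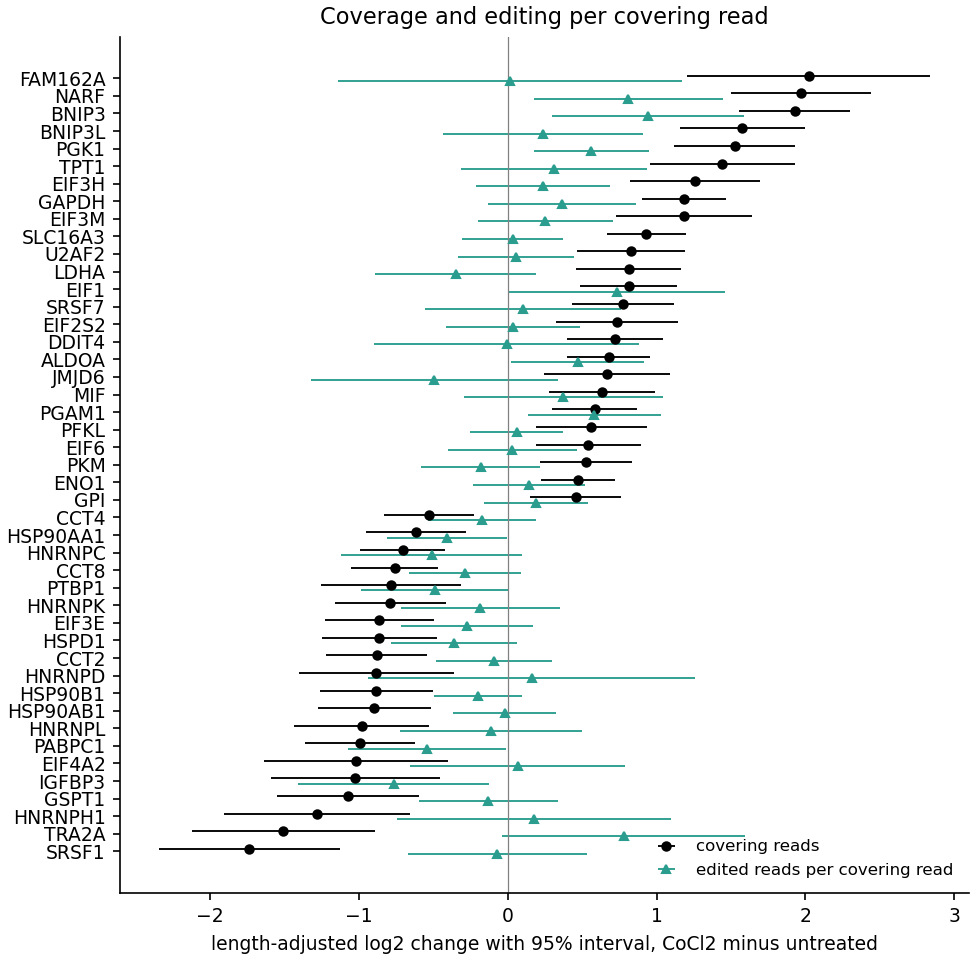
Log2 change with its 95% interval (horizontal axis) in covering reads (black circles) and in edited reads per covering read (green triangles) for the genes of the library plot that were tested for both. The coverage intervals all exclude 0, since only genes that passed in coverage are shown, while most of the intervals for editing per covering read include it.

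Transcripts whose coverage rose had slightly more editing per covering read. Their median log2 change was 0.13, with 335 of 497 above 0, beside 0.00 and 2648 of 5269 for all tested and -0.10 and 142 of 369 for transcripts whose coverage fell. Both quantities use the same covering reads, as the value itself in coverage and as the divisor in editing per covering read. These counts are therefore a description with no test. No position was listed in all 4 libraries, and the part of the positions left out in these counts was not tested.

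Over all transcripts, the curve against length removes any difference common to a length, so the level of each library was also compared. The median transcript had 19.4 and 19.6 edited reads per 100 covering reads in untreated cells and 22.5 and 21.8 in CoCl2, a ratio of 1.14. The groups did not overlap (exact permutation p = 0.333, the smallest possible). In the shortest of the 4 length groups the values were 13.3 and 14.3 untreated and 18.4 and 17.8 in CoCl2, a ratio of 1.31. The ratio was 1.15 in the next group, and 1.08 and 1.09 in the longer ones, so CoCl2 was higher in each group, with the largest gap in short transcripts. The coverage of short transcripts was also higher in CoCl2, and the part of the length profile in this difference was not tested.

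**Figure D5:**
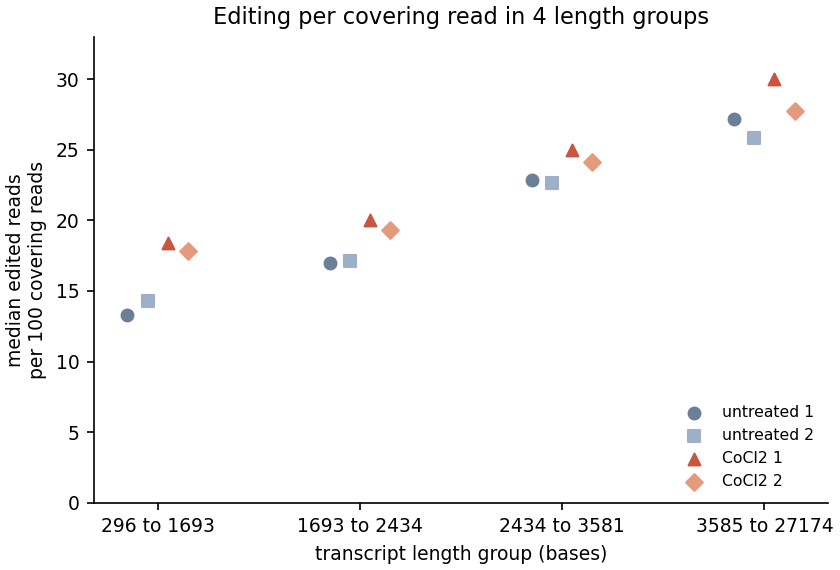
Median edited reads per 100 covering reads (vertical axis, from 0) in 4 groups of transcripts by annotated length in bases (horizontal axis), with 1 point per library. In each group both CoCl2 points lie above both untreated points, from 18.4 and 17.8 against 13.3 and 14.3 in the shortest group to a smaller gap in the longest, where the ratio was 1.09.

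Isoform use was compared within 831 genes that had at least 2 tested transcripts. With limma's diffSplice no gene passed (0.00%), 88 (10.6%) had an unadjusted p under 0.05, and the lowest adjusted p was 0.0745, for ENY2, a subunit of a histone deubiquitinating module. Length-adjusted coverage of its longer isoform ENST00000521688 (2922 bases) was 107 and 163 in untreated cells and 372 and 348 in CoCl2, and that of ENST00000521662 (562 bases) was 47.8 and 47.8 against 28.0 and 26.0. The changes of the isoforms differed by 2.24 on the log2 scale after adjustment and by less before it, with unadjusted changes of 1.01 and 0.13. BIN1, a membrane-bending protein gene, has 3 tested isoforms of similar length, 2074 to 2293 bases, so the adjustment hardly moves them. Its isoform ENST00000409400 had a length-adjusted coverage of 11.6 and 11.5 in untreated cells and 30.4 and 29.9 in CoCl2, while ENST00000393040 had 101 and 106 against 108 and 118. The gene did not pass (adjusted p = 0.0941).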

How the data were processed

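The authors deposited 1 list per library of coding positions, each with its gene, its transcript, its strand and a pair of whole-number read counts, read here from the values as edited and covering reads, since the deposited lists have no header. Which aligner, edit caller and filters were used is not given in the sources used here. The submitters' processing notes name the builds hg19 and hg38, with no role for either. Of 20000 listed positions drawn at random, 99.8% lay in an exon of their own transcript in GRCh38 (GENCODE 29), and all of these were a C, so GRCh38 coordinates are given.

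Per transcript and library the median covering reads and the sum of edited reads were taken. Values were log2(value + 1), and for editing per covering read log2((edited reads + 0.5)/(covering reads + 1)), so changes of low transcripts are understated. A loess curve (span 0.5, degree 1) of each library's deviation against log2 transcript length was taken out. Length, matched by transcript identifier without its version, was known for 96.4 to 97.0% of listed transcripts. Differences were tested with limma 3.58.1 in R 4.3.3 (empirical Bayes with a trend, two-sided, Benjamini-Hochberg adjustment over all transcripts tested, threshold 0.05), and isoform use with limma's diffSplice. A transcript needed to be listed in all 4 libraries with a mean of 10 covering reads, or a mean of 5 edited reads, or both. Counts per library set the precision, and intervals cover the spread between libraries only.

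The fits were tested on simulated data. Named transcripts are the 10 largest rises and falls past the threshold whose groups do not overlap, with a mean of at least 30 covering reads and 1 transcript a gene, and the best-covered called members of 18 gene lists. A list member stands for its best-covered transcript, and other tested isoforms of the same gene often did not pass. Some genes are counted in their lists and not reported here by name. Names beyond this rule were chosen after their values were seen. The comparison and the lists were chosen with earlier results of these data known. The HEK293T libraries were not used here, since line, kit and induction time differ.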

Additional observations from a re-analysis of the deposited data

How the results depend on the processing

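Coverage calls (539 higher, 396 lower) were within 1.5 times of this with 10 length groups, no filter, double the minimum, a pseudocount of 5, the largest coverage in place of the median, limma-voom, strongly edited positions left out or positions in 3 libraries left out. They were 1415 and 1173 with no length adjustment, 771 and 696 with the coding length, 261 and 204 below a mean coverage of 100, 107 and 91 for transcripts of the same version and 428 and 249 with GC content. Leaving out 1 library gave 0 to 1292 higher and 0 to 1058 lower, the lowest without CoCl2 replicate 1 and the highest without untreated replicate 2. Every coverage change that passed and is named for a list or as one of the 10 largest kept its direction under these settings except RPL27, 0.33 with no length adjustment, and RPL28, -0.16, RPL37, -0.13, and PSMB2, -0.12, with the coding length. The causes were not tested beyond the smaller number of samples or transcripts.

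Edited-read calls (100 higher, 56 lower) were 89 and 103 with no length adjustment, 104 and 124 with the coding length, 146 and 98 with no filter, 110 and 90 without positions in 3 libraries, 15 and 10 below a mean coverage of 100 and 2 and 0 for the same version. Of the edited-read changes named among the 10 largest, 8 were weaker with no length adjustment and 6 with the coding length, and none reversed. Leaving out 1 library gave 7 to 334 higher (7 without untreated replicate 1) and 1 to 197 lower. Editing per covering read gave no call in the other settings apart from the replicate block, and 0 to 2 higher and 0 to 6 lower with 1 library left out, where the lone library is assumed to vary like the others. Isoform use called 1 gene, ENY2, with double the minimum (adjusted p = 0.0278) and with a pseudocount of 5 (adjusted p = 0.0326), and none otherwise.

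The replicate numbers do not pair the samples by any label. Across the 6595 tested transcripts, the replicate difference in untreated cells and that in CoCl2 had a correlation of 0.014 for coverage. It rests on 2 pairs of libraries. With a replicate block, coverage called 647 higher and 567 lower, edited reads 204 and 155, editing per covering read 0 and 2 (PPP2R3C and GSN) and isoform use 0.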

Other observations

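Transcripts listed in only 1 of the groups had no coverage test. Both untreated libraries and no CoCl2 library listed 556 transcripts, with a median length of 3411 bases, and both CoCl2 libraries and no untreated library listed 381, with a median of 1722 bases. The median of their covering reads was 5, so most were near the limit of being listed at all. SUPT5H, an elongation factor of RNA polymerase II, had an isoform, ENST00000359191, with 32 and 19 covering reads and 21 and 10 edited reads in untreated cells and no entry in CoCl2, and its edited reads did not pass (adjusted p = 0.0966). An isoform of the kinase gene DIPK1A had 65 and 42 covering reads in untreated cells only, and one of the acetyltransferase gene NAT9 had 56 and 51 in CoCl2 only, with 7 and 8 edited reads. The names here were chosen after their values were seen. A library lists a transcript only where at least 1 read was edited, so no entry is not an absence of covering reads.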
